A study of Mus musculus with 4 samples.

Results

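The 10 genes described here encode receptor chains through which immune cells sense alarmins and common-gamma-chain cytokines, together with markers of the cells that carry them: Il1rl1, Crlf2, Il17rb, Il7r, Il2ra, Il2rb, Il9r, Il18r1, Icos and Klrg1. They were chosen by symbol from the 26033 features of 4 single-cell RNA libraries of salivary gland leukocytes, and their unnormalized UMIs (unique molecular identifiers, each standing for 1 captured transcript) were followed through innate lymphoid, T, NK and dendritic cells. Glands came from 20-day-old mice of a strain labelled C56BL/6, and CD45-positive cells were enriched with beads and then sorted. The groups were Csf2+/- and Csf2-/- mice, each with 1 female and 1 male library, and every library pooled cells of 2 mice. All mice thus carried at least 1 altered Csf2 allele, wild-type mice were not among the samples, and the labels state neither which part of the gene was altered nor whether the mice of a group came from separate litters. P-values therefore measure the spread between pools, and the 2 pools of a genotype also differ in sex.

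Alarmins are released by stressed epithelium and stroma. IL-33 binds ST2, the product of Il1rl1, TSLP binds the receptor chain encoded by Crlf2 together with the IL-7 receptor chain encoded by Il7r, and IL-25 binds the chain encoded by Il17rb. Group 2 innate lymphoid cells (ILC2s), which live in barrier tissues and make IL-5, IL-13 and GM-CSF (the product of Csf2), are known as cells that respond to all of these, and they depend on IL-7. Il2ra and Il2rb encode IL-2 receptor chains, Il9r the IL-9 receptor, Il18r1 the IL-18 receptor, Icos a co-stimulatory receptor and Klrg1 an inhibitory receptor that binds E-cadherin.

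Windows around the annotated transcription starts are shown for the 3 genes with 84.3% to 91.05% of their UMIs in ILC2-like cells (Il1rl1, Il17rb and Il9r), with that of Crlf2, found in every cell class, beside them, since GATA3 is the lineage factor of ILC2s. Each runs from 250 bases before to 50 bases after a start, 5′ to 3′ on the gene's own strand, from RefSeq on GRCm38.p6, an older build than the GRCm39 named in the submitters' processing notes. Capitals mark GATAA or, for the other strand, TTATC. Il1rl1 has 2 annotated starts, at chr1:40429320-40429619 and chr1:40439379-40439678 on the plus strand. The other windows lie on the minus strand, at chr14:30008847-30009146 for Il17rb, chr11:32200230-32200529 for Il9r and chr5:109558944-109559243 for Crlf2.
Il1rl1, upstream start: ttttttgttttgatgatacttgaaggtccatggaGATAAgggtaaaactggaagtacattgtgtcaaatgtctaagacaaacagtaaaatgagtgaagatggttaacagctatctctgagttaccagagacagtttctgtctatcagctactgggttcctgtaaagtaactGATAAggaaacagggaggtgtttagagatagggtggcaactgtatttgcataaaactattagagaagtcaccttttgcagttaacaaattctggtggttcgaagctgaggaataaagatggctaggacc
Il1rl1, downstream start: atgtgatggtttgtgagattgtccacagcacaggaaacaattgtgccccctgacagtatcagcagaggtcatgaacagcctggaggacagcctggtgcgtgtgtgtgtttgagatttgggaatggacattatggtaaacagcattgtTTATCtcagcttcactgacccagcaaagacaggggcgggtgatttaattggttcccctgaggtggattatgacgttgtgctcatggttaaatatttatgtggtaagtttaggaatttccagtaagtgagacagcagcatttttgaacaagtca
Il17rb: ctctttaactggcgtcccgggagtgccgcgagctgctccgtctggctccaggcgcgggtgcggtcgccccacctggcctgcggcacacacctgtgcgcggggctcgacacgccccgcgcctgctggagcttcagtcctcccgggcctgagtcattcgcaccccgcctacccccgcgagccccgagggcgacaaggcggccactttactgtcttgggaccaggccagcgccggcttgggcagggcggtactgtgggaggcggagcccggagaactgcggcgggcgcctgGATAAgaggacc
Il9r: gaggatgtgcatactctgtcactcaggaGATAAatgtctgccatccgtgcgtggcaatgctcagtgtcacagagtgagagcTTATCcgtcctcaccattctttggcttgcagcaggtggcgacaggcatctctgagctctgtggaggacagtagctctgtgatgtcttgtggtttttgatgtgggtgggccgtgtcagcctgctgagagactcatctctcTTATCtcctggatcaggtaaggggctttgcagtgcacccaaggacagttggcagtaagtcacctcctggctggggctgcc
Crlf2: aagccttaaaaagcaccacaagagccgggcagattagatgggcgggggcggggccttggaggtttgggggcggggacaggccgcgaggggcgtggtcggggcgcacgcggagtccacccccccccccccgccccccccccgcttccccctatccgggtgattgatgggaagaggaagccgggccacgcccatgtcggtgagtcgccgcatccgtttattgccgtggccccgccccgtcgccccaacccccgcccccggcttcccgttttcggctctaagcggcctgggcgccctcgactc
The upstream Il1rl1 window held 2 such motifs, the downstream window 1, Il17rb 1, Il9r 3 and Crlf2 0, and 25.4% of 32851 RefSeq windows of the same length held at least 1. Base composition set the windows apart as well. GC content was 38.67% and 44.67% in the Il1rl1 windows, 54.33% at Il9r, 72.0% at Il17rb and 71.67% at Crlf2, against a median of 52.67% over all windows. The Il17rb window held 32 CpG dinucleotides and that of Crlf2 31, whereas the Il1rl1 windows held 1 and 3. A letter match is a description of the sequence and not a measured binding site. Windows were found for 7 of the 10 genes. The GATA motif was in none of the windows of Il7r, Il2ra or Il18r1, although 66.41% of Il2ra and 58.08% of Il7r UMIs also lay in ILC2-like cells, so it did not mark all of the genes concentrated there. In these windows the motif TTCNNNGAA, a palindrome that STAT factors bind, occurred once in the Il7r window and in 2 places in 1 of the 3 Il18r1 windows, and in none of Il2ra (8.3% of all windows held it).

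Libraries held 111981802 to 122366588 UMIs, and 34674 cells remained after filters and removal of predicted doublets. Median UMIs per barcode ran from 8953 to 10586, with both Csf2+/- libraries above both Csf2-/- libraries. Pairs of libraries shared 20 to 36 barcode sequences, at most 0.376% of the smaller library. Clustering, done without the 10 genes and without Csf2, gave 42 clusters, of which 31 could be named by fixed markers. The 11 unnamed clusters held 11.09% to 12.93% of each library. The 11 classes that reached 50 cells in each library were analysed, and names end in "like" because they rest on RNA markers. Plasmacytoid dendritic-like cells were too few, and no cluster was named regulatory T- or ILC3-like. The targeted gene followed its label. In ILC2-like cells Csf2 stood at 126 CPM in the Csf2+/- female library and 140.3 CPM in the male one, compared with 6.67 CPM in the female and 5.83 CPM in the male Csf2-/- library. CPM, computed here, scales the UMIs of each class and library to a common total. Values below follow this order: Csf2+/- female, Csf2+/- male, Csf2-/- female, Csf2-/- male. In sums over a class, a change in the cells that carry a transcript and a change in the transcript per cell cannot be told apart.

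The IL-33 receptor gene was found mainly in ILC2-like cells. Of 55776 Il1rl1 UMIs in all cells, 90.6% lay in ILC2-like cells, which made up 14.8% to 23.62% of each library. Il1rl1 in ILC2-like cells stood at 879.6, 1072, 846 and 942 CPM, a mean of 935 ± 99.4 (SD, n = 4 libraries). Every library was far above every other class and the genotypes overlapped. The next class was cDC2-like, conventional dendritic cells of the second type, at 42.0, 53.7, 22.3 and 24.2 CPM, where both Csf2+/- libraries were above both Csf2-/- libraries. Alpha-beta T-like cells had 36.3, 31.2, 29.9 and 12.1 CPM. Their class also held RNA of all 6 regulatory T cell markers, at a summed 639 to 882 CPM. The same markers summed to 1153 to 1413 CPM in innate-like T cells, where Il1rl1 was 1.89 to 5.72 CPM, and to 591 to 621 CPM in ILC2-like cells. These sums are not particular to regulatory T cells. Ikzf2, 1 of the 6 markers, was among the top 10 genes of the innate-like T cluster when the members were in the clustering. ILC2 markers summed to 576 to 874 CPM in the alpha-beta T-like class, against 7412 to 8746 CPM in ILC2-like cells, and the part of either in the Il1rl1 level was not tested. Macrophage-like cells held 12.9, 14.8, 11.2 and 23.6 CPM. In NK- and ILC1-like cells the mean was 1.40 CPM.

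Depth per cell affects how many cells show a transcript, so cells were also thinned to 3000 UMIs. At that depth 86.9%, 90.1%, 84.8% and 88.6% of ILC2-like cells had an Il1rl1 UMI, and unthinned 97.8%, 98.7%, 95.2% and 97.6% had one. In B-like cells, taken as background, the thinned shares were 0%, 1.47%, 0% and 0%. The zeros, of 234, 151 and 94 cells, allow shares of up to 1.28%, 1.99% and 3.19%. Median UMIs per cell before thinning were 7899.5 to 9671 in ILC2-like and 4615 to 5190 in B-like cells. Macrophage-like shares of 3.49%, 3.8%, 3.17% and 5.26% lay between these classes.

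The IL-25 and IL-9 receptor genes were likewise found mainly in ILC2-like cells. Il17rb stood at 61.5, 56.5, 54.5 and 73.2 CPM in ILC2-like cells, with no other class above a mean of 3.50 CPM, and 84.3% of its 4023 UMIs lay there. At 3000 UMIs per cell, 14.6%, 12.9%, 12.4% and 16.3% of ILC2-like cells had an Il17rb UMI, against 0.427%, 0%, 0% and 1.06% of B-like cells, where the zeros allow up to 2.21% and 1.99%. Il9r stood at 50.4, 51.1, 50.4 and 48.9 CPM in ILC2-like cells, and 91.05% of its 2971 UMIs lay there. The 4 libraries differed little for Il9r, and the next class, B-like, ranged from 2.80 to 12.9 CPM without reaching them.

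Crlf2, which encodes the TSLP-binding chain, had the flattest pattern of the 10. The highest class was cDC2-like, at 119.8, 115, 160.2 and 146 CPM, with both Csf2-/- libraries above both Csf2+/- libraries. Monocyte-like cells followed at 109, 101, 111 and 109 CPM and macrophage-like cells at 106, 97.3, 117 and 106 CPM, overlapping each other. In cDC1-like cells it was 82.6, 77.5, 81.8 and 73.4 CPM. NK- and ILC1-like (66.0 to 73.6 CPM), innate-like T (61.7 to 72.8), gamma-delta T-like (58.4 to 73.6), ILC2-like (58.3 to 65.4), alpha-beta T-like (48.7 to 67.8) and B-like cells (49.8 to 68.9) overlapped each neighbour in the order, and migratory dendritic-like cells were lowest, at 39.3 to 53.1 CPM. Thus ILC2-like cells held 10.9% of the 30890 Crlf2 UMIs, less than NK- and ILC1-like (25.8%), macrophage-like (22.3%) or cDC2-like cells (13.5%). The thinned share of ILC2-like cells with a Crlf2 UMI, 14.5% to 17.7%, overlapped that of B-like cells, 10.3% to 20.6%.

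**Figure D1:**
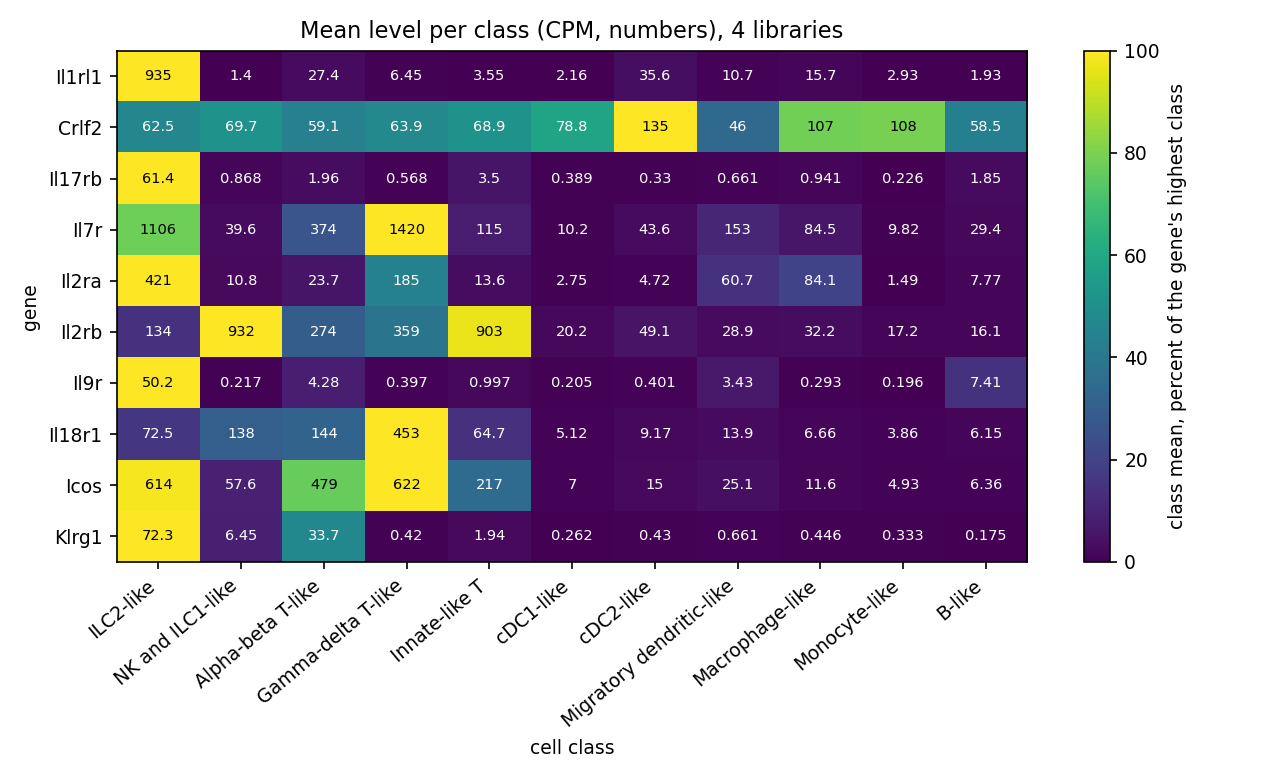
Mean level of the 10 genes (rows) in 11 cell classes (columns). Numbers are mean CPM over the 4 libraries and colour gives each mean as a percent of the gene's highest class, so rows are comparable within a gene only. Il1rl1, Il17rb and Il9r are yellow (the highest) in the ILC2-like column alone, while Crlf2 is spread over all columns with its maximum in cDC2-like cells.

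Il7r, whose product forms the IL-7 receptor with the common gamma chain and the TSLP receptor with the Crlf2 product, was highest in gamma-delta T-like cells, at 1356, 1394, 1445 and 1487 CPM. ILC2-like cells came next at 1063, 1020.1, 1164 and 1176 CPM, and the classes did not overlap. Both Csf2-/- libraries were above both Csf2+/- libraries in ILC2-like cells. Alpha-beta T-like cells held 415, 349.6, 383 and 349 CPM. Among dendritic cells Il7r was concentrated in the migratory class, the cells that carry antigen to lymph nodes, at 159.6, 153, 148 and 152 CPM, compared with 38.2, 45.4, 44.5 and 46.3 CPM in cDC2-like cells. Innate-like T cells had 89.5 to 143 CPM and macrophage-like cells 79.5 to 87.9 CPM, and the B-like class stood at 24.5 to 33.2 CPM. After thinning, 26.3% to 38.9% of migratory dendritic-like cells had an Il7r UMI, above the 2.94% to 6.41% of B-like cells.

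The IL-2 receptor genes divided the lymphoid classes. Il2ra, the high-affinity alpha chain, was highest in ILC2-like cells at 396, 491, 382 and 416 CPM, followed by gamma-delta T-like cells at 171, 218, 156 and 194 CPM. Macrophage-like cells came after these, at 81.0, 89.4, 85.0 and 80.9 CPM, and held 15.75% of all 34201 Il2ra UMIs. Thinned shares of macrophage-like cells with an Il2ra UMI, 12.5% to 15%, were above the 0.427% to 3.19% of B-like cells. Within the macrophage-like class Il2ra was uneven. A cluster led by Folr2 and Lyve1 had 3.29, 4.02, 1.27 and 6.41 CPM, and another 157, 194, 186 and 152 CPM. Migratory dendritic-like cells held 63.8, 64.9, 50.4 and 63.8 CPM, and alpha-beta T-like cells 18.8 to 29.2 CPM.

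Il2rb, which encodes the beta chain shared with the IL-15 receptor, showed another ranking. NK- and ILC1-like cells stood at 927, 955, 898 and 947 CPM and innate-like T cells at 849, 983, 852 and 930.3 CPM, overlapping each other. Gamma-delta T-like cells followed with 333 to 385 CPM and alpha-beta T-like cells with 249 to 300.3 CPM. ILC2-like cells held 129, 142, 144 and 121 CPM. Of the 146289 Il2rb UMIs, 72.25% lay in NK- and ILC1-like cells.

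Il18r1, the IL-18 receptor chain, was highest in gamma-delta T-like cells at 435, 433, 475 and 468 CPM. Alpha-beta T-like cells, at 62.4, 140.4, 195 and 178 CPM, overlapped NK- and ILC1-like cells, at 119, 134, 125 and 173 CPM. ILC2-like cells had 66.2, 83.4, 76.2 and 64.2 CPM and innate-like T cells 51.2 to 82.3 CPM. The Csf2+/- female library was the low value among alpha-beta T-like cells.

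Icos was shared by gamma-delta T-like cells, at 677, 611, 642 and 559.6 CPM, and ILC2-like cells, at 675, 565, 619 and 598 CPM, which overlapped. Alpha-beta T-like cells had 443, 459, 466 and 546 CPM, and NK- and ILC1-like cells 52.6, 42.0, 67.5 and 68.3 CPM. Klrg1 stood at 53.5, 92.8, 60.9 and 82.0 CPM in ILC2-like cells, where both male libraries were above both female libraries. Alpha-beta T-like cells, at 37.9, 14.9, 63.5 and 18.5 CPM, overlapped them, with both female libraries above both male libraries. NK- and ILC1-like cells, many of which carry Klrg1 protein in adult mice, had 5.2 to 8.27 CPM here.

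Genes whose class means were most like those of a member, by Pearson r of log2(CPM + 1) over the 11 classes among 5511 genes, are given as a description. They were Il5 for Il1rl1 (r = 0.896), Pitpna for Crlf2 (0.949), Nhs for Il17rb (0.957) and Il9r (0.889), and Tnfsf11 for Il7r (0.939). They were Cd96 for Il2rb (0.974), F2r for Il18r1 (0.967), Camk4 for Icos (0.990) and Ccl1 for Klrg1 (0.881). Il5 and Ccl1 were among the markers that named the ILC2-like class.

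Differences of the receptors between ILC2-like cells and other classes were fitted with edgeR on UMIs summed per library and class, each library giving both classes. The classes were clustered from the same cells, and genes that go with these receptors helped to define them. The members were also chosen with earlier results known. P-values and medians below therefore describe the size and spread of differences between these classes and are no independent test of them. All contrasts below share the ILC2-like sums, and TMM scaling moved the median gene by up to 0.33 on the log2 scale relative to scaling by library totals, so differences are relative to the median gene. A gene that passes the low-count filter only through ILC2-like cells, where it is high, had to differ, so counts cover genes that pass within each of both classes. Against NK- and ILC1-like cells Il9r failed this (25 UMIs there). Of the other 9 members 7 were higher and 2 lower in ILC2-like cells, where 37.1% of 11172 genes were higher, 35.9% lower and 73% called in all. The median log2 difference was 3.80 over these 9 and 0.01 over all genes. Il1rl1 was 9.84 ± 0.24 higher on the log2 scale (SE; edgeR adjusted p = 9.87e-06) and Il7r 5.21 ± 0.30 higher (edgeR adjusted p = 0.000519). Il2rb was lower, by -2.48 ± 0.05 (edgeR adjusted p = 8.92e-13), and Il18r1 by -0.60 ± 0.16 (edgeR adjusted p = 0.0317). The Il18r1 call was lost without the Csf2+/- female library (edgeR adjusted p = 0.0986) or the Csf2-/- female library (0.0719), and without a filter on low counts (0.0560). Crlf2 changed sign with the scaling, from 0.17 (edgeR adjusted p = 0.00165) under TMM to -0.16 (edgeR adjusted p = 0.00318) under library totals, and was not called in thinned cells (0.11, edgeR adjusted p = 0.116). Scaling by library totals left 6 members higher and 3 lower, with 2438 genes higher and 6579 lower among the 11172.

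Against alpha-beta T-like cells, which held 13 UMIs of Il17rb and 28 of Il9r, 5 of the other 8 members were higher and 1 lower (27.3% and 28.1% of 8414 genes, 55.3% in all). Il1rl1 differed by 5.40 ± 0.24, Il2ra by 4.48 ± 0.10 and Il7r by 1.88 ± 0.06, and Il2rb by -0.71 ± 0.07. Klrg1 (1.34 ± 0.58, edgeR adjusted p = 0.151) and Il18r1 (-0.65 ± 0.31, edgeR adjusted p = 0.183) missed the threshold of 0.05. Crlf2 was called under TMM (0.39 ± 0.09, edgeR adjusted p = 0.000803) but not under library totals (0.08, edgeR adjusted p = 0.478), where 4 members and 1179 genes were higher and 1 member and 4449 genes lower.

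In gamma-delta T-like cells Klrg1, Il17rb and Il9r had 5, 7 and 5 UMIs over the 4 libraries, against 3940, 3390 and 2705 in ILC2-like cells, and were not counted. Of the other 7 members 4 were higher and 3 lower in ILC2-like cells (24.7% and 27.1% of 9318 genes, 51.8% in all). Il2ra was higher by 1.41 ± 0.05. Il18r1 was lower by -2.45 ± 0.07, Il2rb by -1.21 ± 0.06 and Il7r by -0.14 ± 0.04 (edgeR adjusted p = 0.00282, and 0.107 without a filter on low counts). Icos was not resolved: 0.21 under TMM, -0.011 under library totals (edgeR adjusted p = 0.815), -0.21 with coarser clusters and 0.13 in thinned cells (edgeR adjusted p = 0.0601). Crlf2, at 0.24 ± 0.07 under TMM, was lost with DESeq2 (adjusted p = 0.137) and without the Csf2+/- female (edgeR adjusted p = 0.100) or Csf2-/- female library (0.146), and was likewise not called under library totals (0.02, edgeR adjusted p = 0.878), which left 2 members and 1415 genes higher and 3 members and 4284 genes lower.

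In both dendritic contrasts Il17rb, Il9r and Klrg1 again passed the filter only through ILC2-like cells (10, 12 and 14 UMIs in cDC2-like and 3, 20 and 3 in migratory dendritic-like cells) and were not counted. Against cDC2-like cells, 6 of the other 7 were higher in ILC2-like cells and Crlf2 was lower (38.2% and 36% of 10318 genes, 74.2% in all). The log2 difference was 4.90 ± 0.24 for Il1rl1 and -0.98 ± 0.08 for Crlf2 (edgeR adjusted p = 5.61e-07). Against migratory dendritic-like cells all 7 were higher (33.6% of 7664 genes, with 36.5% lower and 70.2% in either direction). Il7r differed by 2.70 ± 0.07 and Il2ra by 2.65 ± 0.09, less than in the cDC2-like contrast, where they differed by 4.79 ± 0.07 and 6.59 ± 0.18. Crlf2 was the smallest difference there, 0.32 ± 0.11 (edgeR adjusted p = 0.0170), and was lost without the Csf2+/- female library (edgeR adjusted p = 0.185), with DESeq2 (adjusted p = 0.110), with doublets kept (edgeR adjusted p = 0.0826) and in thinned cells (0.0683).

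ILC2-like cells were not uniform. They fell into 3 large clusters and a small one of 79 cells. The first, led by Ptpn13, Il5 and Areg, held 44.5%, 55.69%, 34.89% and 40.25% of the class. The second, led by Arg1, held 35.96%, 31.22%, 45.97% and 43.08%, and the third, led by Calca and Il13, 18.5%, 12.55%, 17.78% and 14.75%. The Il5-led share was thus higher and the Arg1-led share lower in both Csf2+/- libraries than in both Csf2-/- libraries. Since the clusters were built from genes that go with these receptors, the levels are descriptions without a test, and Il17rb itself was among the top 10 genes of the third.

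Icos differed between the clusters: 638, 541, 601 and 591 CPM in the Il5-led, 356, 291, 378 and 332 CPM in the Arg1-led and 1196, 1091, 1045 and 1076 CPM in the Calca-led cluster. Klrg1 ran the other way, at 60.7, 99.2, 71.1 and 87.5 CPM, then 72.6, 127, 81.3 and 114 CPM, and only 10.8, 15.3, 11 and 13 CPM in the Calca-led cluster. No library of the Calca-led cluster overlapped either other cluster for these genes. Il17rb stood at 147, 138, 129.7 and 170.0 CPM in the Calca-led cluster, above all libraries of the Il5-led (26.9 to 54.3 CPM) and Arg1-led clusters (34.5 to 43.1 CPM).

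Il1rl1 was highest in the Il5-led cluster, at 1062, 1206, 1030.3 and 1133 CPM, compared with 697, 835, 774 and 806 CPM in the Arg1-led and 724, 934, 675 and 756 CPM in the Calca-led cluster. Il2ra had its highest level in the same cluster (462 to 564 CPM, against 280.2 to 348 in the Arg1-led cluster). Crlf2 was 56.3 to 65.1, 66.6 to 74.2 and 41.4 to 60.1 CPM in the Il5-, Arg1- and Calca-led clusters. Il7r was above the Csf2+/- libraries in both Csf2-/- libraries of every one of the 3, for instance 866, 829, 1047 and 1057 CPM in the Arg1-led cluster.

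**Figure D2:**
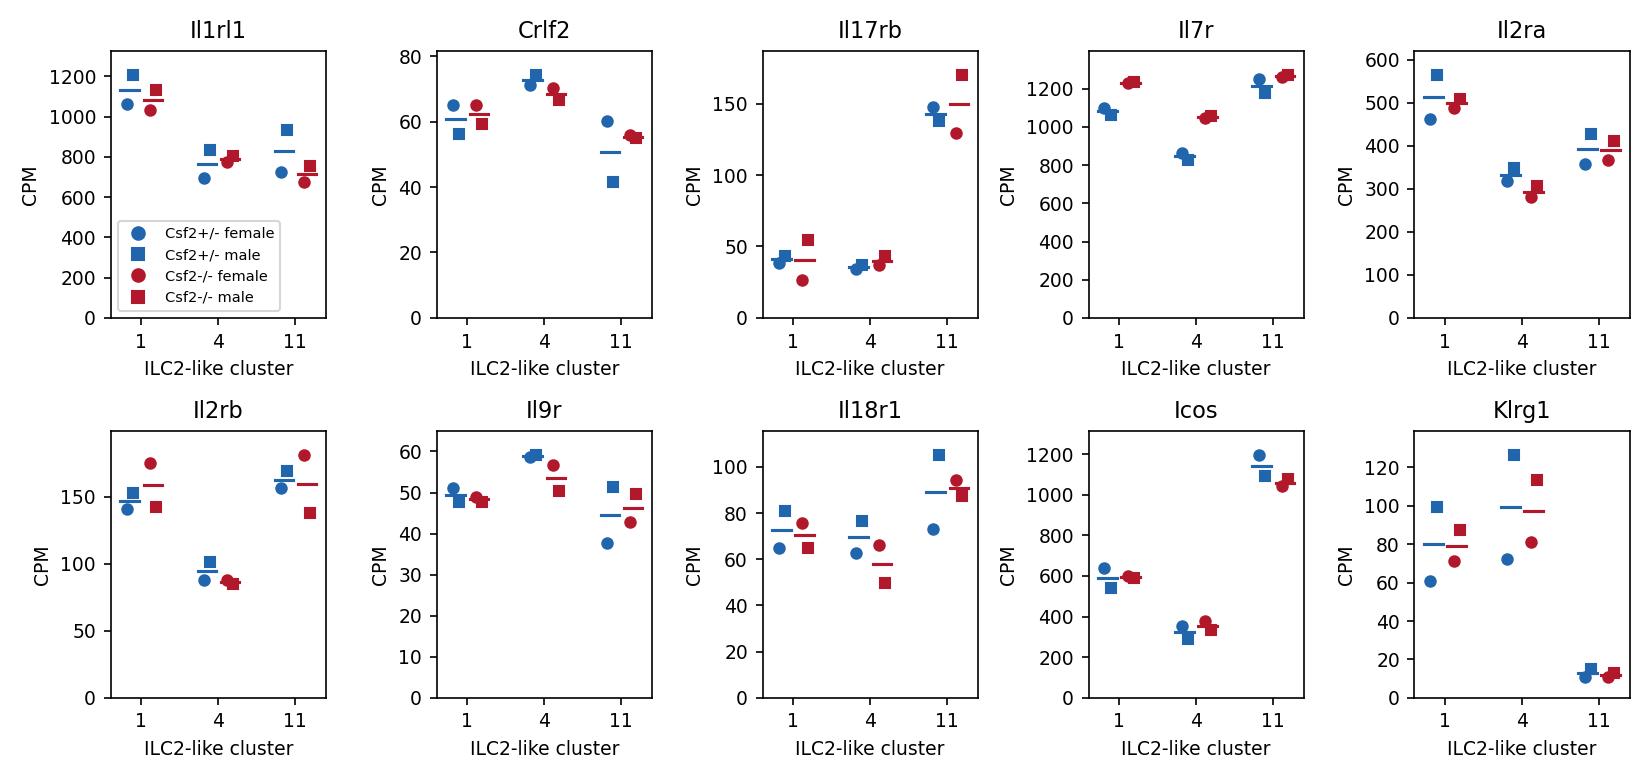
CPM of the 10 genes in the 3 large ILC2-like clusters, 1 panel per gene; points are libraries and bars are genotype means. Il17rb and Icos are highest and Klrg1 lowest in cluster 11 (Calca-led), with cluster 1 the Il5-led and cluster 4 the Arg1-led one.

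How many of the 3 alarmin receptor genes a cell shows depends on the depth, so combinations are given at 1 depth and say nothing of how many receptors a cell carries. Of ILC2-like cells thinned to 3000 UMIs, 9.0%, 7.46%, 10.8% and 7.53% had no UMI of Il1rl1, Il17rb or Crlf2. At this depth 65.2% to 68.7% had UMIs of 1 of the 3 genes, 21.7% to 24.6% of 2 and 1.1% to 2.64% of all 3. Cells with an Il17rb UMI were 14.2%, 13.2%, 11.7% and 16.3% of those with and 17.2%, 10.3%, 16.2% and 16.3% of those without an Il1rl1 UMI, with no common direction over the libraries. Il1rl1 was found in 95.2%, 95.7%, 88.8% and 92.8% of cells with an Il18r1 UMI and in 85.6%, 88.9%, 84.1% and 87.9% of cells without, higher in the first in every library. Il18r1 UMIs were present in 13.6% to 18.2% of ILC2-like cells.

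Whether loss of Csf2 altered the receptors was asked class by class, comparing 2 with 2 libraries. In ILC2-like cells, where Csf2 was checked above, all 10 genes passed the filter on low counts and edgeR called none, at a background of 0.0261% (3 of 11478 genes). None had an unadjusted p under 0.05, and DESeq2 and limma-voom also called 0. The log2 change was -0.17 ± 0.09 for Il1rl1 (edgeR adjusted p = 0.708), -0.19 ± 0.10 for Il2ra (edgeR adjusted p = 0.675) and 0.13 ± 0.07 for Il7r (edgeR adjusted p = 0.705). For Il17rb it was 0.08 ± 0.13 and for Klrg1 -0.06 ± 0.38, the widest of the 10. The median over the members was -0.07 and over all genes 0.00. The shares of these cells in the Il5- and Arg1-led clusters also did not overlap between the genotypes, and these shares were not tested. Il1rl1, Il2ra and Il7r differ in level between those clusters, and the part of the shares in the class values was not tested. Within the Il5-led cluster Il1rl1 and Il2ra overlapped between genotypes, and within the Arg1-led cluster Il2ra was 317 and 348, then 280.2 and 305 CPM.

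The cDC2-like class differed. Of 7 members tested 3 rose and 1 fell in Csf2-/- libraries, at a background of 4.49% (497 of 11073 genes), and 6 had an unadjusted p under 0.05. The member median was 0.67 and that of all genes 0.01. Il1rl1 (42.0 and 53.7, then 22.3 and 24.2 CPM) changed by -1.03 ± 0.13 on the log2 scale (edgeR adjusted p = 0.000264), and leaving out any 1 library kept the call, at -1.19 to -0.86. With predicted doublets kept it was -1.07 (edgeR adjusted p = 0.0885). The fall was present in both clusters of the class: 45.1, 49.0, 23.8 and 25.6 CPM in the larger and 35.1, 65.4, 18.3 and 19.0 CPM in the dividing one. An unnamed cluster led by Retnla and Fn1 stood outside the class, and its Il1rl1 level is given at the end. It made up 3.115% and 4.187% of the Csf2+/- but 0.6247% and 0.4991% of the Csf2-/- libraries. The part of such cells in the fall was not tested. The thinned share of cDC2-like cells with an Il1rl1 UMI was 13.4% (95% exact binomial interval 10.3% to 16.9%, counting error only), 16.2% (12.8% to 20.2%), 5.79% (3.71% to 8.57%) and 6.11% (4.24% to 8.48%). Unthinned shares were 43.0%, 42.7%, 20.4% and 20.5%, with median depths of 17627.5, 16115, 14657 and 14383 UMIs.

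Crlf2 moved the other way in cDC2-like cells, from 119.8 and 115 to 160.2 and 146 CPM, a change of 0.39 ± 0.09 (edgeR adjusted p = 0.0228). Its groups did not overlap, but the call was lost with DESeq2 (adjusted p = 0.0812) and without the Csf2+/- female (edgeR adjusted p = 0.0617), Csf2+/- male (0.118) or Csf2-/- female library (0.294). Thinned shares were 27% and 25.8%, then 36.8% and 36.9%. Both clusters of the class had the same order of genotypes, with 123, 119, 157 and 147 CPM in the larger and 112, 106, 169 and 143 CPM in the dividing one.

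Il2rb and Icos were the other called members, both at low levels in cDC2-like cells. Il2rb rose from 36.1 and 40.1 to 49.8 and 70.3 CPM (0.67 ± 0.14, edgeR adjusted p = 0.0149), and changed by -0.16 with doublets kept (edgeR adjusted p = 0.635). It was not called in thinned cells (edgeR adjusted p = 0.243) or with the members in the clustering (0.0914), and lost its call without the Csf2+/- female (edgeR adjusted p = 0.166), Csf2+/- male (0.105) or Csf2-/- male library (0.159, at 0.42). Icos rose from 7.20 and 7.73 to 15.7 and 29.4 CPM (1.61 ± 0.28, edgeR adjusted p = 0.0157), a call lost without the Csf2+/- female (edgeR adjusted p = 0.286) or male library (0.244) and with limma-voom (adjusted p = 0.0812). With doublets kept Icos was 0.66 (edgeR adjusted p = 0.0729). That setting also changed the class, as a cluster of 743 cells with markers of cDC2 and of NK and ILC1 cells stayed outside it, unnamed. The mean of Cd3d, Cd3e and Cd3g was 131.3 CPM in that cluster, against 1.33 CPM in the larger cDC2-like cluster of the same setting. With doublets removed and the members in the clustering, the larger cDC2-like cluster had 21.5 CPM. The part of this change of cells in the values of Il2rb and Icos was not tested. Summed lymphoid markers moved with these genes: NK markers, 13 of 13 with UMIs, stood at 259, 265, 398 and 434 CPM, and alpha-beta T markers, 14 of 14, between 90.2 and 345 CPM, with both Csf2-/- libraries above both Csf2+/- libraries. ILC2 markers rose likewise, 47.6, 71.1, 93.1 and 133 CPM, while Il1rl1 fell in the same sums. Mast cell and basophil markers summed to at most 2.40 CPM, with Mcpt8, Fcer1a and Ms4a2 at 0. The part of NK and T cell RNA in the Il2rb and Icos results was not tested.

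**Figure D3:**
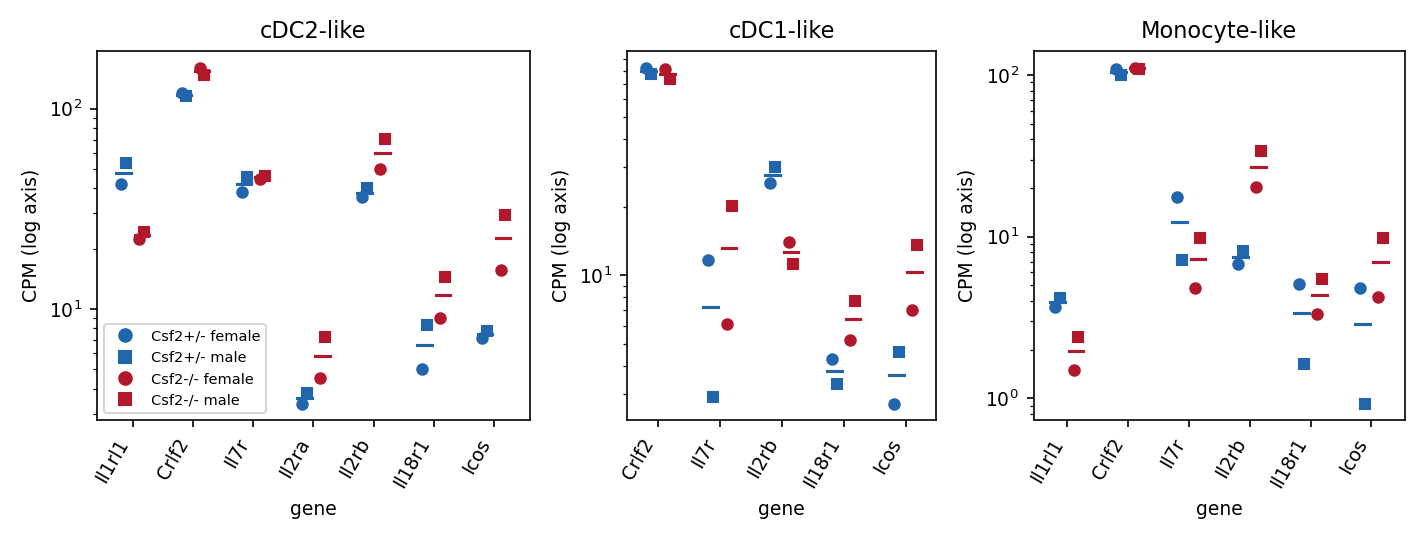
CPM on a log axis of the members tested in cDC2-, cDC1- and monocyte-like cells; points are libraries and bars genotype means. In cDC2-like cells Il1rl1 is lower and Crlf2 higher in both Csf2-/- libraries than in both Csf2+/- libraries.

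Among other myeloid classes Il2rb was again the gene that passed. In monocyte-like cells 1 of 6 members was called (background 1.26%): Il2rb, from 6.79 and 8.09 to 20.1 and 33.9 CPM (1.90 ± 0.25, edgeR adjusted p = 0.00109), while NK markers summed to 42.2, 50.1, 246 and 164 CPM. The call was lost without the Csf2+/- male library (edgeR adjusted p = 0.0512) in cells thinned to 3000 UMIs (1.06, edgeR adjusted p = 0.334) and with the members in the clustering (1.01, edgeR adjusted p = 0.421). In cDC1-like cells 1 of 5 was called (background 1.37%): Il2rb fell from 25.6 and 30.0 to 14.1 and 11.2 CPM (-1.17 ± 0.24, edgeR adjusted p = 0.0169), with NK markers at 218, 258, 189 and 164 CPM. Without the Csf2+/- female, Csf2+/- male or Csf2-/- male library that call was lost (edgeR adjusted p = 0.0655, 0.137 and 0.264), as it was with doublets kept (-0.47, edgeR adjusted p = 0.245). With sex as a block Icos was called as well (1.46 ± 0.43, edgeR adjusted p = 0.0231, at a background of 4.25%). So Il2rb and summed NK markers had the same direction in all 3 classes, and the part of NK RNA was not tested in any of them.

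In macrophage-like cells edgeR called 0 of 8 members, and 0 of 12650 genes in all (background 0%). At an unadjusted p under 0.05 there were 4 members (Icos, Il18r1, Il17rb and Il2rb, each higher in Csf2-/-), limma-voom called 0 and DESeq2 1 (Icos). Each genotype has 1 female and 1 male library, and with sex as a block edgeR called 2 of the 8, Icos (1.57 ± 0.18, edgeR adjusted p = 0.00180) and Il18r1 (1.00 ± 0.19, edgeR adjusted p = 0.0125), at a background of 3.73% of all genes. Without the Csf2-/- female library it called 4 members at a background of 4.52%. Alpha-beta T markers summed to 82.6, 69.2, 147 and 162 CPM in the class, and their part in these values was not tested. Il1rl1 changed by 0.29 ± 0.33 there and Crlf2 by 0.10 ± 0.11. Migratory dendritic-like cells had 0 of 7 called (background 0.465%) and 2 at an unadjusted p under 0.05, Il2rb (1.11 ± 0.25, edgeR adjusted p = 0.0655) and Icos (1.12 ± 0.28, edgeR adjusted p = 0.101), with alpha-beta T markers at 117, 45.4, 205 and 216 CPM. B-like cells had 0 of 3 called (background 0.204%) and 1 at an unadjusted p under 0.05. DESeq2 and limma-voom called 0 in both of these classes.

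In NK- and ILC1-like cells edgeR called 0 of 9 members (background 0.0232%), with 3 at an unadjusted p under 0.05, and limma-voom also called 0. Il7r, at 28.2, 22.9, 52.0 and 55.4 CPM, had the smallest p of these, with a change of 1.05 ± 0.12 and an edgeR adjusted p of 0.0911. Il1rl1, at 0.769, 0.965, 1.45 and 2.40 CPM from 29 to 46 UMIs per library, changed by 1.11 ± 0.32 (edgeR adjusted p = 0.512), and Icos by 0.50 ± 0.12 (edgeR adjusted p = 0.386). The Il7r groups did not overlap, and 11 of 14 alternatives put it under the threshold, DESeq2 among them (adjusted p = 9.44e-10). With sex as a block Il7r (edgeR adjusted p = 0.00430) and Icos (0.0402) were called, at a background of 2.08%. Nearly all of this RNA lay in 1 cluster, led by Gzmc, where Il7r was 171, 153, 223 and 236 CPM and which held 22.06%, 20.42%, 29.8% and 28.93% of the class. Icos (189, 190.0, 228 and 234 CPM) and Il18r1 (184, 175, 207 and 231 CPM) were high in that cluster too. In the largest other cluster Il7r was 3.15, 2.12, 4.66 and 4.87 CPM. With the Gzmc-led cluster left out, the change was 1.34 ± 0.29 (edgeR adjusted p = 0.591). ILC2 markers summed to 342, 338, 509 and 478 CPM in the class, and their part in the result was not tested.

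T-like classes gave no call with edgeR (genotype as the only term), DESeq2 or limma-voom. Of 8 members 0 were called in alpha-beta T-like cells (edgeR, background 0.248%) and 0 of 7 in gamma-delta T-like cells (edgeR, background 0.0423%), with none at an unadjusted p under 0.05. In innate-like T cells 0 of 8 were called (edgeR, background 0.217%) and 3 had an unadjusted p under 0.05, among them Il18r1 (0.49 ± 0.13, edgeR adjusted p = 0.112, and 0.0422 with sex as a block at a background of 0.483%) and Il7r (0.33 ± 0.12, edgeR adjusted p = 0.486).

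**Figure D4:**
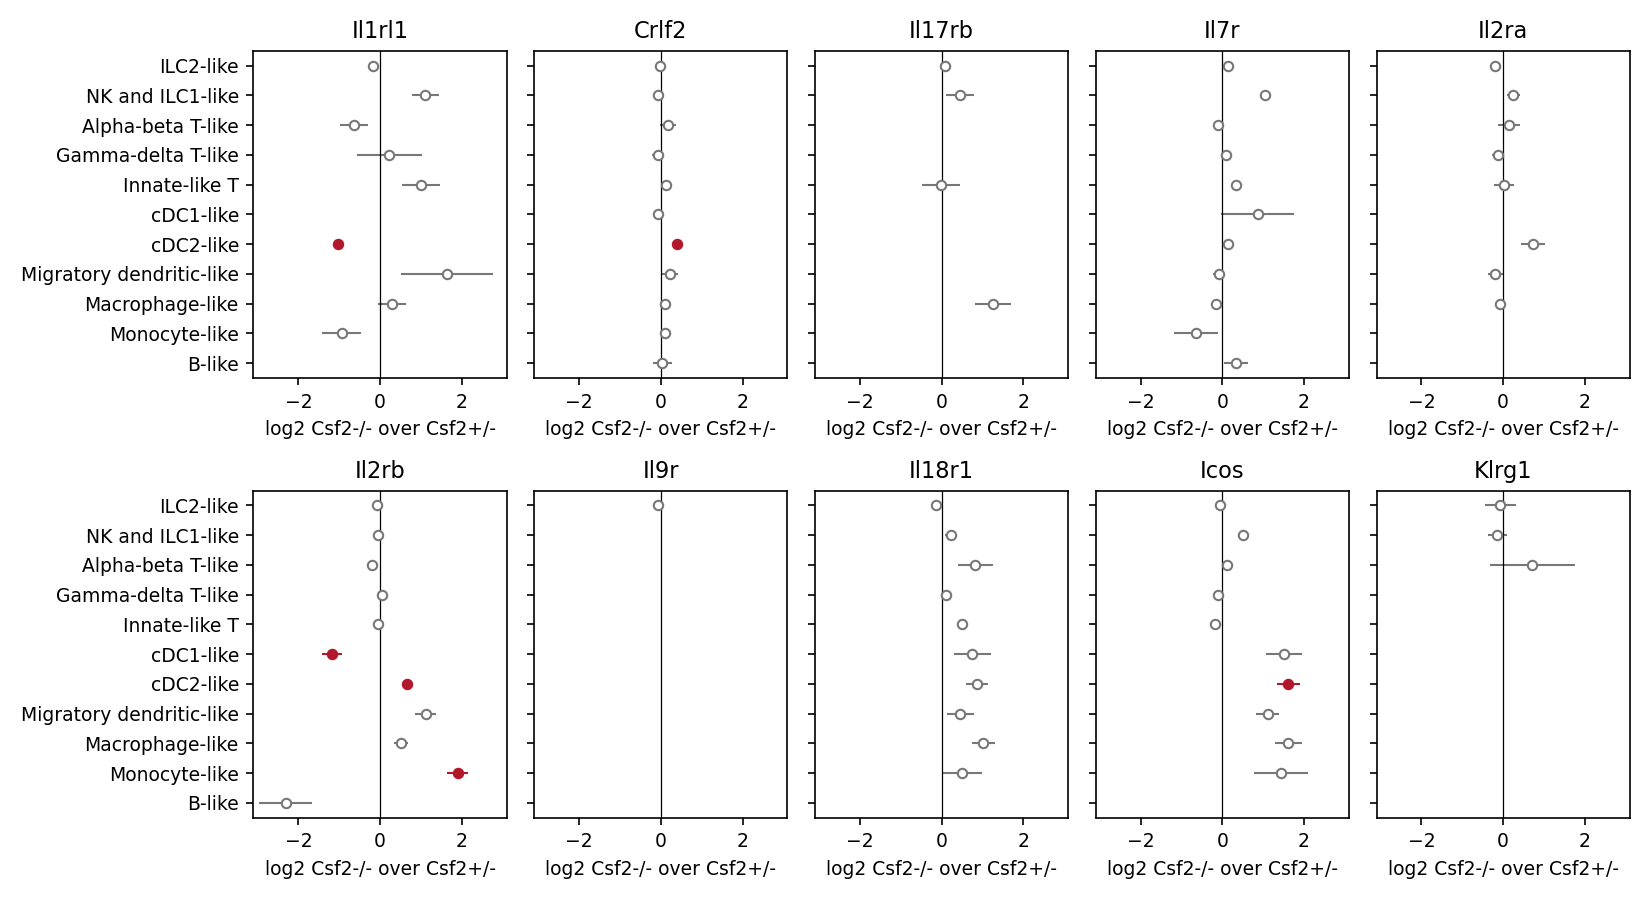
Log2 change (Csf2-/- over Csf2+/-) with its standard error for each member tested in each class; red filled points have an edgeR adjusted p under 0.05. Panels are genes and rows are classes. The ILC2-like row has no filled point in any panel and the cDC2-like row has 4, Il1rl1 below 0 and Crlf2, Il2rb and Icos above.

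The difference between classes was tested directly as an interaction, with the ILC2-like sums again shared. Unlike in the class contrasts, counts and backgrounds here keep genes that passed the low-count filter only through ILC2-like cells. Among the members these were Il17rb, Il9r and Klrg1 against cDC2-like, Il9r against NK- and ILC1-like, and Il17rb and Il9r against alpha-beta T-like cells. Their genotype change in the other class rests on few UMIs. Il1rl1 changed differently in ILC2-like and cDC2-like cells, by 0.87 ± 0.09 on the log2 scale (edgeR adjusted p = 0.000184), the 1 call among 10 members at a background of 1.31%. Between ILC2-like and NK- and ILC1-like cells 2 of 10 were called at a background of 0.139%, Il7r (-0.93 ± 0.09, edgeR adjusted p = 0.00203) and Icos (-0.58 ± 0.07, edgeR adjusted p = 0.00753). Between ILC2-like and alpha-beta T-like cells edgeR called 0 of 10 (background 0.00869%), with 2 at an unadjusted p under 0.05, and DESeq2 called 0.

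**Figure D5:**
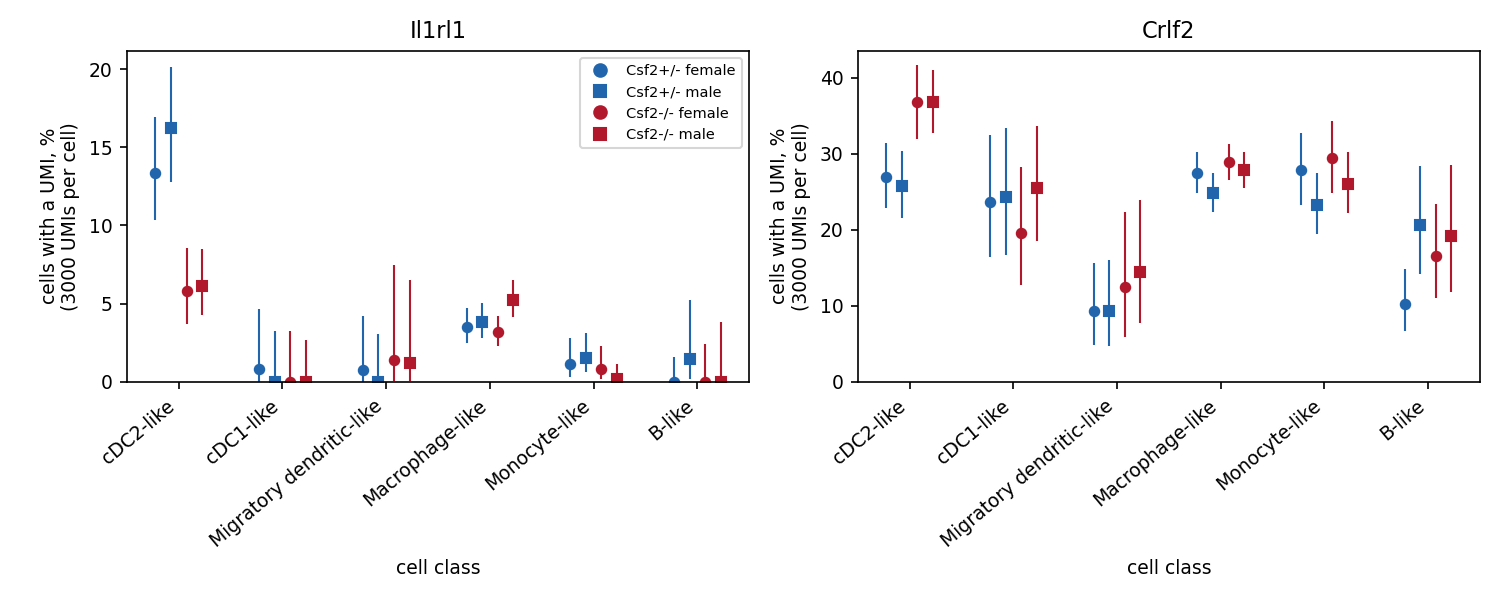
Share of cells with a UMI of Il1rl1 or Crlf2 after thinning to 3000 UMIs per cell, with 95% exact binomial intervals, in 4 libraries of 6 classes. In cDC2-like cells Il1rl1 shares are 13.4% and 16.2% in the Csf2+/- libraries, compared with 5.79% and 6.11% in the others, and B-like cells stay at or under 1.47%.

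The ligands of these receptors were sparse in a CD45-positive sort, as 12 genes of a fixed list show. Il33, made by stroma and endothelium, reached 149, 31.5, 45.1 and 61.4 CPM in the few stromal- and endothelial-like cells (33 to 69 per library). Tslp was highest in macrophage-like cells at 13.2, 14.9, 10.9 and 14.2 CPM. Il2 and Il4 were highest in ILC2-like cells, at 17.6 to 30.3 and 18.7 to 27.6 CPM, while Il9 did not pass 1.26 CPM there. Il18 was highest in cDC1-like cells (31.1 to 40.7 CPM), and Il15 (72.2 to 86.7 CPM) and Icosl (60.3 to 101 CPM) in migratory dendritic-like cells. Cdh1, which encodes the Klrg1 ligand E-cadherin, was highest in innate-like T cells at 102 to 137 CPM.

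Partner chains complete these receptors. Il2rg, the common gamma chain, was highest in ILC2-like cells at 205, 218, 241 and 230.1 CPM, as was Il4ra. Il1rap, the chain that IL-33 signalling shares with IL-1, was highest in cDC1-like cells (85.3, 67.1, 72.9 and 54.2 CPM) and stood at 24.4 to 33.8 CPM in ILC2-like cells. Il18rap was highest in NK- and ILC1-like, Il17ra in monocyte-like, Il15ra in migratory dendritic-like and Il21r in innate-like T cells. Of the 7 partner chains, 2 were called by genotype, both in cDC2-like cells. Il1rap fell with Il1rl1 there, from 55.8 and 71.4 to 39.7 and 42.4 CPM (-0.62 ± 0.12, edgeR adjusted p = 0.00571), and Il2rg rose from 50.4 and 50.5 to 70.6 and 69.6 CPM (0.48 ± 0.09, edgeR adjusted p = 0.00728). Without the Csf2-/- female library both calls were lost, at an edgeR adjusted p of 0.0749 for Il1rap and 0.101 for Il2rg, and DESeq2 gave Il2rg an adjusted p of 0.0831. Il2rg was not called with doublets kept (edgeR adjusted p = 0.0615) or in thinned cells (0.307) either.

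Of 8 inhibitors and feedback genes, 1 was called. Cish, a STAT5-induced inhibitor of cytokine signalling, was highest in ILC2-like cells at 326, 307, 335 and 332 CPM, and in cDC2-like cells it fell from 55.5 and 50.9 to 13.2 and 21.4 CPM (-1.60 ± 0.17, edgeR adjusted p = 0.000487), a call kept without any 1 library. Over all classes edgeR called 0 of 138 tests of the 13 signalling genes (Janus kinases, STATs and the Myd88 branch) and 0 of 39 tests of ligands, with 16 and 8 at an unadjusted p under 0.05. DESeq2 and limma-voom called 0 in both lists.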

How the data were processed

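Single-cell 3′ RNA libraries of sorted CD45-positive salivary gland cells were analysed, 4 samples in 2 genotypes, built with a 10x 3′ v2 kit per the labels' protocols. The matrices the authors deposited give raw UMI counts (whole numbers, unscaled) for each gene in each barcode. The submitters' processing notes name Cell Ranger 7.0.0 and GRCm39. The 10 members and the lists of markers and pathway genes were chosen with earlier results of these data known.

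Filters required 500 UMIs, 300 genes and no more than 10% mitochondrial UMIs, which 37644 of 39395 barcodes passed. Scrublet, run in scanpy 1.11.5, scored doublets per library. Its automatic threshold marked 0% to 0.0343% of barcodes in 3 libraries and 9.88% in the Csf2-/- male library, so in every library the expected share with the highest scores (7.46% to 8.07%) was removed. Leiden clustering (resolution 1.5; leidenalg 0.10.2 and igraph 0.11.9) used 40 principal components of 3000 variable genes, with the members and Csf2 left out. Clusters were named by fixed markers, needing at least 3 with 50 CPM and a 2-fold excess. These thresholds were set after the clusters were seen, and the names may differ from the study's own. UMIs were summed per library and class, and CPM was computed here from those sums.

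Tests used edgeR 4.0.16 in R 4.3.3 (quasi-likelihood, TMM, robust dispersion, default low-count filter), with genotype as the only term and 2 residual degrees of freedom, or with library and class. Members of a class contrast were counted only where they passed the filter within both classes, a rule set after seeing the data. P-values were adjusted by Benjamini-Hochberg over all genes of a comparison, and the SE was the log2 change over the square root of F. An exact permutation test of 2 against 2 libraries could not go below p = 0.333. The fits were tested on simulated data, with known genotype changes in genes above 20 CPM. In ILC2-like cells 43% of 1.5-fold and 95% of 2-fold changes were called. These shares were 32% and 87% in NK- and ILC1-like and 55% and 99% in cDC2-like cells. A 1.5-fold change between genotypes can therefore go uncalled. DESeq2 1.42.0 and limma 3.58.1 (voom) served as alternatives, with other filters, clusterings and scalings. Leaving out the Gzmc-led cluster and scaling by library totals were alternatives chosen after seeing the data. Members were named in full where a class mean reached 20 CPM or a genotype test called them, and pathway genes by list. The gene most like each member by class means was ranked as well, and part of that ranking is not reported here. Share intervals are exact binomial at 95% (scipy 1.17.1), and a share of 0 allows 3 counts.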

Additional observations from a re-analysis of the deposited data

Results flagged for a closer look

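For 3 results the change between Csf2-/- and Csf2+/- libraries differed between cell classes by the test of the difference itself. Il1rl1 changed by -0.17 in ILC2-like cells, where it was not called, and by -1.03 in cDC2-like cells. The fitted difference of these changes was 0.87 on the log2 scale. The Il7r change was smaller in ILC2-like than in NK- and ILC1-like cells, by -0.93, and so was the Icos change, by -0.58. All 3 kept their side of the threshold with DESeq2 and without any 1 library.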

How the results depend on the processing

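In these data 2 libraries per genotype limit every genotype call, with 2 residual degrees of freedom where genotype is the only term. Genotype fits with sex as a block, and those that leave out 1 library, have only 1 residual degree of freedom. Where a library is left out, the lone library of its group is assumed to vary like the other group. Low levels in small classes rest on few UMIs, shares depend on depth, and the names of classes on the clustering. The labels give no replicate numbers. Class contrasts were paired by library, which was a term of the fit, and genotype was also fitted with sex as a block. Each genotype has 1 female and 1 male library, so this replicate block pairs the female and the male libraries, and the labels tie them by nothing else. Of the single genes called between classes, 450 alternatives kept direction and call, 15 lost the call and 3 reversed. By genotype 90 kept, 26 lost and 1 reversed, and 11 gained a call. All 11 were of Il7r in NK- and ILC1-like cells, which was uncalled at first and was followed besides the called genes. It also gave 3 of the 90, where it stayed uncalled. This genotype tally includes the pathway genes Il2rg, Cish and Il1rap, and other uncalled members were not followed. The 0 called members in ILC2-like and gamma-delta T-like cells stayed at 0 under all 13 alternatives. Where a cause is not named below, the cause was not tested.

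Counts of members called by genotype moved as follows, and the share of all genes called moved with them. With DESeq2 they were 1 in macrophage-like, 1 in NK- and ILC1-like, 0 in monocyte-like and 0 in cDC1-like cells. The last 2 were 0 because DESeq2 gave Il2rb no adjusted p. The shares of all genes called were 0.148%, 0.285%, 0.365% and 0.264% in that order. Without a filter on low counts they were 1 in B-like (0.466% of all genes called) and 1 in innate-like T cells (0.372%). They were 2 each in migratory dendritic- (1.7%), monocyte- (2.1%), NK- and ILC1- (0.713%) and cDC1-like cells (2.36%). With sex as a replicate block they were 1 in innate-like T and 2 each in macrophage-, NK- and ILC1- and cDC1-like cells. Thinned cells gave 2 in NK- and ILC1-like (0.3% of all genes called), 0 in monocyte- (0.308%) and 0 in cDC1-like cells (0.736%). Doublets kept gave 1 in macrophage- (0.137% of all genes called), 0 in cDC1- (0.561%) and 1 in cDC2-like cells (2.55%). The last was without the unnamed cluster of 743 cells described above. At resolution 0.8 macrophage-like cells had 1 and NK- and ILC1-like cells 1 (1.77% and 0.0535% of all genes called). Innate-like T cells formed no class there. Members in the clustering gave 1 in NK- and ILC1- (0.0308% of all genes called) and 0 in monocyte-like cells (0.422%). At most 5% mitochondrial UMIs gave 1 in innate-like T (0.285%) and 1 in NK- and ILC1-like cells (0.0386%). Leaving out 1 library gave 0 to 1 in alpha-beta T-, B-, innate-like T and monocyte-like cells, 0 to 4 in macrophage-, 0 to 2 in migratory dendritic- and cDC1-, 1 to 2 in NK- and ILC1- and 1 to 3 in cDC2-like cells. For the interaction these ranges were 0 to 2 against alpha-beta T-, 2 to 5 against NK- and ILC1- and 1 to 5 against cDC2-like cells, where DESeq2 gave 2. The share of all genes called without 1 library reached 4.52% in macrophage-, 2.55% in cDC1-, 2.01% in monocyte-, 1.92% in migratory dendritic-, 1.41% in alpha-beta T-, 1.09% in B- and in NK- and ILC1-like, 0.801% in innate-like T and 3.45% in cDC2-like cells. At resolution 0.8 the share was 16.4% in cDC2-like cells, then a single cluster of 2631 cells led by Retnla, Cd209a and Fn1. A cluster of 2434 cells led by Il1a was unnamed at that resolution and left the macrophage-like class. Values at resolution 0.8 therefore cover other cells. With sex as a block the share of all genes called was 3.73% in macrophage-, 4.25% in cDC1-, 6.57% in cDC2-, 2.08% in NK- and ILC1-like and 0.483% in innate-like T cells. At resolution 0.8 it was 1.77% in macrophage-like cells, and for the interaction without 1 library up to 0.656%, 0.656% and 3.71%, in the order above.

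Reversed results were Il2rb in cDC2-like cells with doublets kept (-0.16), Icos against gamma-delta T-like cells at resolution 0.8 (-0.21) and under library totals Crlf2 against NK- and ILC1-like (-0.16) and Icos against gamma-delta T-like cells (-0.011). Thinning to 1500 UMIs lowered the Il1rl1 shares from 87.6% to 68.4% in ILC2-like cells, from 14.8% to 7.41% in Csf2+/- and from 5.95% to 3.73% in Csf2-/- cDC2-like cells, where doublets kept gave 4.86%. It moved Il1rl1 among Il18r1-positive and -negative ILC2-like cells from 93.1% to 76.7% and from 86.6% to 67.6%, and the share with none of 3 alarmin receptors from 8.68% to 26.7%, as fewer UMIs per cell must. With the members in the clustering, Icos moved to 637 and 1184 CPM in the Il5- and Calca-led clusters and Il17rb to 169 CPM in the latter.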

Other observations

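Cells outside the named classes also held these receptors. An unnamed cluster led by Il23r had Il7r at 1590.0, 1395, 1392 and 1510.1 CPM, Icos at 1283, 1188, 1188 and 1092 CPM and Il18r1 at 646, 605, 557 and 676 CPM, in the order of libraries used above. Its Il17rb, at 28.5 to 36.9 CPM, was above the mean of every named class other than the ILC2-like one. A second unnamed cluster, led by Retnla, Fn1 and Lyz1, had Il1rl1 at 59.8, 63.2, 55.2 and 67.3 CPM, with the genotypes overlapping. This cluster made up 3.115% and 4.187% of the Csf2+/- libraries but only 0.6247% and 0.4991% of the Csf2-/- libraries. Its Csf2-/- values thus rest on few cells, and they describe the level in the cells that remained. Crlf2 there stood at 97.5 and 94.5 CPM in the Csf2+/- and at 146 and 136 CPM in the Csf2-/- libraries, the order also seen in cDC2-like cells. These clusters were picked after their values were seen, and neither was tested.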
